A study of Mus musculus with 6 samples.

Results

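Genes that move metal ions across membranes or bind them inside the cell were examined in mouse colon with and without trinitrobenzenesulfonic acid (TNBS) colitis. The members were the rows of the deposited table whose gene name belongs to the solute carrier families Slc11, Slc30, Slc31, Slc39, Slc40 or Slc41, with the metallothionein genes Mt1, Mt2 and Mt3, the transcription factor gene Mtf1 and the ferroxidase gene Heph. They numbered 34 of the 16906 rows. Slc30a3, Slc30a8 and Slc30a10 were not analysed here. RNA of colon tissue was sequenced from 3 samples labelled with normal feeding and 3 labelled with TNBS-induced IBD. All donors were described as male wild-type mice of the C57BL/6J strain, 6 to 8 weeks old and weighing 20 to 22 g. The model group received TNBS at 5% w/v into the colon through the anus, and no vehicle-treated group is named, so the procedure and the agent cannot be told apart. TNBS is a hapten that provokes inflammation of the gut wall and is used to model Crohn's disease in rodents. The time between dosing and sampling, and the part of the colon taken, were not given in the sources used here.

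Zinc, iron, copper and magnesium are needed by every cell and are harmful in excess, so their entry, exit and storage are regulated. Slc39 proteins carry zinc, and some of them iron and manganese, into the cytosol, and Slc30 proteins carry zinc out of the cytosol into organelles or out of the cell. Metallothioneins are small cysteine-rich proteins that bind zinc and copper, and their genes are induced by zinc through Mtf1, which binds metal response elements in their promoters, and also by glucocorticoids and inflammatory cytokines. In the gut, absorptive cells take up dietary metals at their apical side and pass iron to the blood through the exporter encoded by Slc40a1, while macrophages use the same exporter to return iron from old red cells.

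Library totals ran from 15185569 to 23380492 counts in protein-coding genes, and the members together took 0.203% to 0.258% of them. The TNBS libraries differed from one another in ways that touch the results below. The 4 Y-linked genes measured, summed, stood at 0.697%, 103% and 38.2% of the normal mean in TNBS replicates 1, 2 and 3, although the labels name males. The summed levels of 4 more anterior Hox genes, which mark position along the body axis, spanned 8.20 to 23.1 CPM (read counts scaled to a common library total) among normal samples, and TNBS replicates 1 to 3 had 22.9, 164 and 155 CPM. The sum over 5 Hox genes used further towards the hind end spanned 157 to 222 CPM among normal samples, and TNBS replicates 1 to 3 had 132, 41.4 and 34.4 CPM. Of the 4 tested genes of this sum, 3 had a negative log2 fold change and 1, Hoxd10, a positive one. Hoxd10 was at 1.70, 0.725 and 0 CPM in normal and 0.591, 17.1 and 21.0 CPM in TNBS replicates 1 to 3. Normal samples differed as well, with Hoxb13 at 106, 57.7 and 7.37 CPM in replicates 1 to 3. Goblet cell markers summed to 37755 to 69243 CPM against 4140 to 14145 CPM after TNBS, with 2 of 7 lower, and endothelial markers to 167 to 175 against 285 to 465 CPM, with 2 of 6 higher. The 2 goblet genes that fell, Clca1 and Fcgbp, hold most of the difference: without them the other 5 summed to 11394 to 17331 CPM in normal colon and to 13175, 3832 and 5798 CPM in TNBS replicates 1 to 3. All 8 pan-epithelial markers were present in every library, with sums of 8821 to 10064 CPM in normal and 7529 to 8514 CPM in TNBS colon, and none of them passed the test. The part of these differences in the results on metal genes was not tested, and the metallothionein values are also given without the libraries concerned.

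The promoters of 4 members are shown because they hold matches to the core of the metal response element, and because 2 of the 4 genes rose and the other 2 did not pass the test. Further members hold such matches too, as do many other windows, as given below. The windows come from RefSeq on build GRCm38.p6, run from 250 bases before to 50 bases after the annotated start of transcription, and are written 5′ to 3′ along the gene. Capitals mark the core of the metal response element, searched as TGCACNC or TGCGCNC on both strands. Mt1 lies on chromosome 8 (window chr8:94178839-94179138, plus strand), Mt2 beside it (chr8:94172368-94172667, plus strand) and Mt3 close by (chr8:94152357-94152656, plus strand). Slc30a1, the zinc exporter of the plasma membrane and a known target of Mtf1, lies on chromosome 1 (chr1:191906531-191906830, plus strand).
Mt1: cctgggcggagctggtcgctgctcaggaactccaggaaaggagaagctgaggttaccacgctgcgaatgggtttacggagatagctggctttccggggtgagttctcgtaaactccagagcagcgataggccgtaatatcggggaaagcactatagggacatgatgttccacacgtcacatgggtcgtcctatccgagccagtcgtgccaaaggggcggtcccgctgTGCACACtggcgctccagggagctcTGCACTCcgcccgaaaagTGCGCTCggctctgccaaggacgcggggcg
Mt2: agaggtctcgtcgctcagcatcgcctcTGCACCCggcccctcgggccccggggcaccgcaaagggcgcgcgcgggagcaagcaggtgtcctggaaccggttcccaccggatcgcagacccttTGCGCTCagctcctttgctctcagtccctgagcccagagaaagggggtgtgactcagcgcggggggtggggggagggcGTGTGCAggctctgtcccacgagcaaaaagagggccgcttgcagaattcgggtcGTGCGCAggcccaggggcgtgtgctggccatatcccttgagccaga
Mt3: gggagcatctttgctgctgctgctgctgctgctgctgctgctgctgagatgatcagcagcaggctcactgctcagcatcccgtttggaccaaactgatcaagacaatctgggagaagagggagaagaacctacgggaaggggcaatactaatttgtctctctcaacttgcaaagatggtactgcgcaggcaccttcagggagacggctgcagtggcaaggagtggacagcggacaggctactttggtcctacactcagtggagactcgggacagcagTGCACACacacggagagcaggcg
Slc30a1: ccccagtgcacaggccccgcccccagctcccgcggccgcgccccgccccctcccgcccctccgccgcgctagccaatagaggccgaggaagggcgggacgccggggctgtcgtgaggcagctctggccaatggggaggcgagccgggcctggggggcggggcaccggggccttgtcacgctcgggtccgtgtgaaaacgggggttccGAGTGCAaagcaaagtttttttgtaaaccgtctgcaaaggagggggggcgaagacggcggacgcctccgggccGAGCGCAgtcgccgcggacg

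The Mt1 window held 3 matches, at -23, 3 and 21 counted from the annotated start, and the Mt2 window held 4, at -223, -128, -50 and 5. These positions give the first base of each match along the gene, with no position 0. No sequence outside a window was searched, so positions, counts and absences depend on the start that was annotated. The Mt1 annotation includes longer transcripts, and another start would move its positions and could change its counts. The Mt3 window held 1 match, at 28, and the Slc30a1 window held 2, at -43 and 31. Among all 32851 promoter windows of that table, 25.7% held at least 1 match, 7.11% at least 2, 1.97% at least 3 and 0.517% at least 4. An antioxidant response element, searched as TGACNNNGC, had 1 match in the Mt2 window, at -79, 1 in the Slc30a1 window, at -82, and 12.4% of all windows held at least 1. A STAT site, searched as TTCNNNGAA, was not found in any of the 4 windows, and 8.30% of all windows held at least 1. Of the 34 members 28 had a window, 32 windows in all. Slc30a4, an exporter into vesicles whose log2 fold change was -0.21 (edgeR adjusted p = 0.477), also had 3 metal response element matches. Slc30a2, whose counts are given below, had 2, as many as Slc30a1, and the windows of further members, such as Slc39a3 and Slc41a1, held 1. Whether the number of matches goes with the change after TNBS was not tested. A match describes the letters of the window, not binding.

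The comparison of TNBS with normal colon asks which of these transcripts differed in the treated tissue. Mt1 and Mt2 rose by 14.8 and 23.7 times, and no other tested member passed the test. Of the 34 members 31 had enough counts to be tested in the fit across all 14126 genes with edgeR's quasi-likelihood test and Benjamini-Hochberg adjustment over all of them, at a threshold of 0.05. Among these 31, 2 were higher and 0 lower, where 0.906% of all tested genes were called higher, 1.14% lower and 2.05% either way. At an unadjusted p under 0.05 the 31 include 5 higher and 6 lower, against 10.8% and 10.2% of all tested genes. DESeq2 called 4 of the 31 higher and 3 lower, against 9.03% of all genes in either direction, and also Slc30a2 higher. The 3 TNBS values lay all above the 3 normal values for 5 of the 31 and all below for 8, against 15.3% and 14.8% of all tested genes. The median log2 fold change was -0.21 over the 31 members and 0.01 over all tested genes, and 11 of the 31 had a positive value and 20 a negative one. In bulk tissue, fewer cells of a type and less RNA per cell cannot be told apart.

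**Figure D1:**
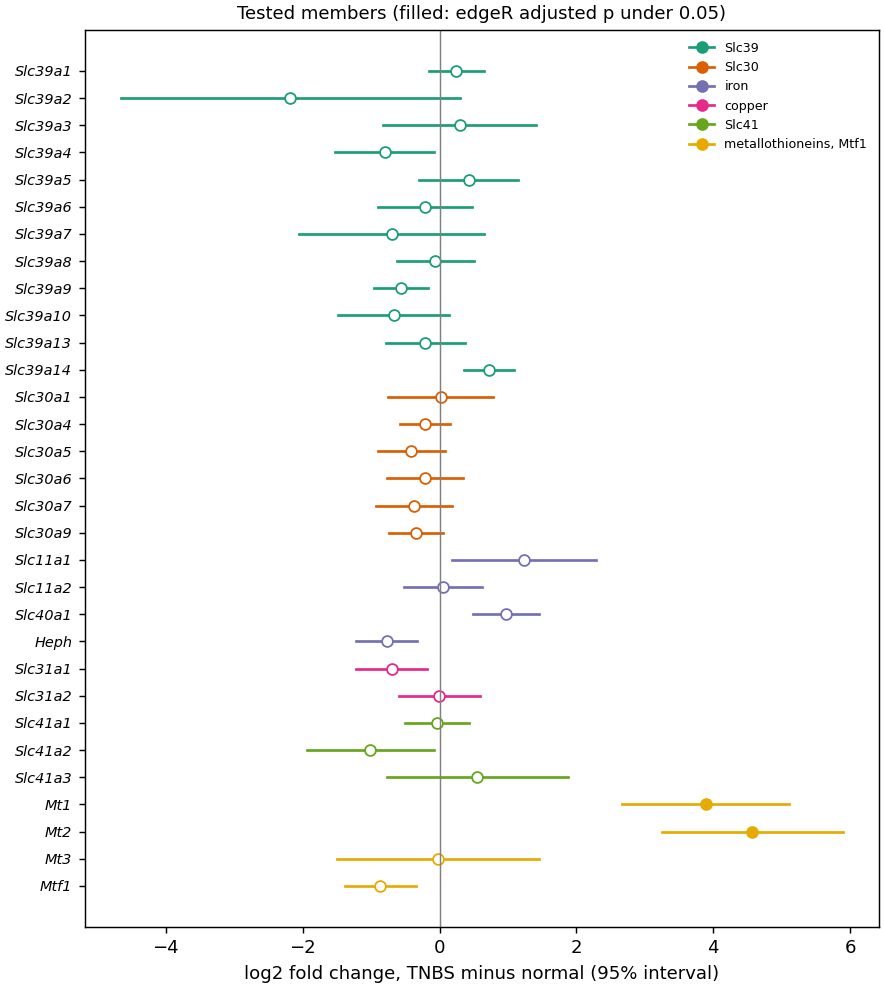
Log2 fold change of TNBS against normal colon for the 31 tested members, on the horizontal axis, with 95% intervals from edgeR's quasi-likelihood fit and colours for the role groups. Filled circles mark an adjusted p under 0.05: Mt1 at 3.89 and Mt2 at 4.57 stand apart from the other members, which lie between -2.18 and 1.23.

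Metallothionein transcripts showed the largest differences among the tested members. Mt1 (ENSMUSG00000031765, chromosome 8 from 94179082 to 94180327, mm10) stood at 20.2, 14.8 and 14.7 CPM in normal replicates 1 to 3 and at 78.3, 417 and 242 CPM in TNBS replicates 1 to 3. Its lowest TNBS value, that of replicate 1, lay well above the highest normal one. The means were 16.6 ± 3.12 and 246 ± 169 CPM (SD, n = 3), giving a log2 fold change of 3.89 (SE 0.54, edgeR adjusted p = 0.0156). Mt2 (ENSMUSG00000031762, chromosome 8 from 94172664 to 94173568) stood at 10.9, 6.98 and 9.44 CPM across normal libraries and at 63.4, 366 and 220 CPM in the TNBS libraries. The groups again did not overlap, and the TNBS libraries stood in the same order as for Mt1. Its log2 fold change was 4.57 (SE 0.58, edgeR adjusted p = 0.0128), with 95% bounds at folds of 9.48 and 59.3. Both genes carry the promoter matches printed above, whose part in the rise was not tested. Within a library, Mt1 reads outnumbered Mt2 reads 1.84, 2.12 and 1.56 times in the normal libraries and 1.24, 1.14 and 1.10 times in the TNBS libraries. This ratio does not depend on the scaling between libraries, and the 3 TNBS values lay below the 3 normal ones. The ratio was chosen after its values were seen. No 50-base stretch of the Mt1 or Mt2 transcripts occurs in another gene of GENCODE vM21. The antisense gene Gm45774 overlaps 73.5% of the Mt2 exons, so reads from it and from Mt2 cannot be told apart if counting ignored the strand.

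The brain-enriched metallothionein Mt3 and the regulator Mtf1 did not move with them. Mt3 (chromosome 8 from 94152607 to 94154146) was at 1.05, 1.63 and 2.32 CPM in the normal and 2.41, 1.16 and 1.33 CPM in the TNBS libraries, with overlapping groups and a log2 fold change of -0.02 (SE 0.65, edgeR adjusted p = 0.988). Its 95% interval was wide, a fold of 0.354 to 2.75, and the gene had 18 to 53 counts in a library. Mtf1 (ENSMUSG00000028890, chromosome 4 from 124802104 to 124849800) was at 54.8, 50.8 and 52.1 CPM across normal libraries and at 35.3, 20.6 and 30.6 CPM in the TNBS libraries. Each TNBS value lay below each normal one, but the log2 fold change of -0.87 (SE 0.23) missed the threshold (edgeR adjusted p = 0.0921; DESeq2 adjusted p = 0.0174). The protein-coding gene 1110065P20Rik, on the opposite strand, overlaps 8.10% of the Mtf1 exons.

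**Figure D2:**
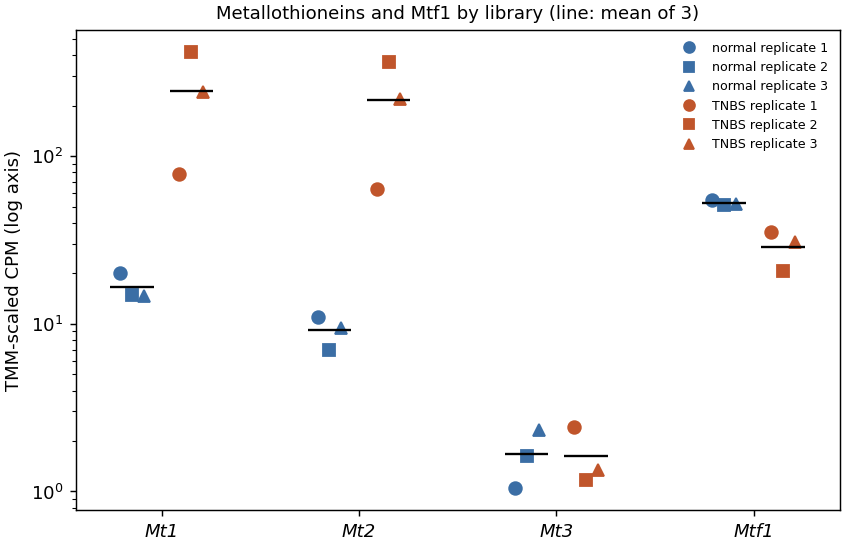
TMM-scaled CPM, on a log axis, of Mt1, Mt2, Mt3 and Mtf1 in each of the 6 libraries, with black lines at the mean of 3. Every TNBS point of Mt1 and Mt2 lies above the normal points, from 78.3 to 417 CPM for Mt1 and from 63.4 to 366 CPM for Mt2, while the Mt3 groups overlap and the Mtf1 points of TNBS colon, 20.6 to 35.3 CPM, lie below the normal ones.

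The rise of the metallothioneins differed in size between TNBS libraries. TNBS replicate 1 was the library lowest in Y-linked transcripts, at 0.697% of the normal mean. TNBS replicates 2 and 3 lay apart in Hox transcripts, so no fit left out both features. When TNBS replicate 1 was kept alone, which left out both whose Hox transcripts lay apart, the log2 fold changes were 2.25 for Mt1 and 2.80 for Mt2. With TNBS replicate 2 alone, which left out both libraries low in Y-linked transcripts, the metallothionein values were 4.65 and 5.32. Each of these fits takes the spread of the single TNBS library to equal that among normal samples. Without TNBS replicate 2 they were 3.28 and 3.96, and both passed. The call was lost without normal replicate 2, at log2 fold changes of 3.83 and 4.42 (edgeR adjusted p = 0.0880 and 0.0775), and without normal replicate 3, at 3.81 and 4.59 (edgeR adjusted p = 0.0992 and 0.0840). Those fits called 7 and 18 genes higher in all. Neutrophil markers moved with the group, and their part in the metallothionein values was not tested. Of 6 tested neutrophil markers 4 rose, and the 7 listed markers summed to 2.14 to 3.17 CPM in normal and to 62.1, 123 and 53.8 CPM in TNBS replicates 1 to 3. Of these markers Csf3r was at 0 in TNBS replicates 2 and 3, and S100a8, Mmp8 and Retnlg were each at 0 in at least 1 normal library.

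Iron transport genes had values on both sides, and none passed the test. Slc40a1, which encodes the iron exporter ferroportin (ENSMUSG00000025993, chromosome 1 from 45908068 to 45926523), stood at 161, 126 and 116 CPM in the normal and 207, 304 and 281 CPM in the TNBS libraries. The groups did not overlap, and the log2 fold change was 0.97 (SE 0.22), a fold of 1.96 with a 95% interval of 1.40 to 2.75 (edgeR adjusted p = 0.0586; DESeq2 adjusted p = 0.00193). Heph encodes hephaestin, the copper-dependent ferroxidase that oxidises iron as it leaves absorptive cells (ENSMUSG00000031209, chromosome X from 96455359 to 96574485). It stood at 231, 271 and 328 CPM in the normal and 168, 138 and 179 CPM in the TNBS libraries, again without overlap but in the other direction. Its log2 fold change was -0.77 (SE 0.20), a fold of 0.585 with a 95% interval of 0.427 to 0.800 (edgeR adjusted p = 0.0880; DESeq2 adjusted p = 0.00984). Slc40a1 counts were 0.697, 0.465 and 0.353 times those of Heph in the normal libraries and 1.23, 2.20 and 1.57 times in the TNBS libraries. So the exporter had fewer reads than the ferroxidase in each normal library and more in each TNBS library; this ratio, too, was chosen after its values were seen and holds within a library whatever the scaling.

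The divalent metal transporters of the Slc11 family differed from each other. Slc11a1, which encodes Nramp1 of the phagosome membrane in macrophages and neutrophils (chromosome 1 from 74375195 to 74386062), was at 4.19, 3.31 and 1.87 CPM in the normal and 10.5, 4.78 and 6.83 CPM in the TNBS libraries. All TNBS values were above the normal ones, and the log2 fold change was 1.23 (SE 0.46, edgeR adjusted p = 0.183). Beside it, the 8 macrophage markers summed to 202 to 223 CPM in normal colon and to 314, 149 and 262 CPM in TNBS replicates 1 to 3, and none of the 7 tested passed. Csf1r, a defining macrophage gene, was at 0 in the normal libraries and in TNBS replicate 2. The part of macrophages and neutrophils in the Slc11a1 value was not tested. Slc11a2, the apical iron importer of absorptive cells, was at 27.3, 34.1 and 26.8 CPM in the normal and 39.5, 22.0 and 29.7 CPM in the TNBS libraries. Its groups overlapped, and the log2 fold change was 0.05 with 95% bounds at folds of 0.696 and 1.54 (edgeR adjusted p = 0.924).

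Among the 14 zinc importer genes of the Slc39 family, 12 were tested and none passed, with a median log2 fold change of -0.21. Slc39a14 encodes ZIP14, a zinc, iron and manganese importer induced by interleukin-6 in liver (ENSMUSG00000022094, chromosome 14 from 70303469 to 70351425). It stood at 65.0, 67.7 and 64.0 CPM in the normal and 116, 114 and 95.6 CPM in the TNBS libraries. The normal values lay close together, all TNBS values were higher, and the log2 fold change of 0.73 (SE 0.16) narrowly missed the threshold (edgeR adjusted p = 0.0581; DESeq2 adjusted p = 0.00816). Slc39a9, a zinc importer of the secretory pathway (chromosome 12 from 80643883 to 80683342), stood at 218, 233 and 245 CPM in the normal and 173, 136 and 162 CPM in the TNBS libraries. Its groups did not overlap either, and its log2 fold change was -0.57 (SE 0.17, edgeR adjusted p = 0.124; DESeq2 adjusted p = 0.0425). Slc39a4, the apical zinc importer of absorptive cells whose human counterpart is mutated in acrodermatitis enteropathica (chromosome 15 from 76612383 to 76617384), stood at 83.5, 113 and 46.6 CPM in the normal and 38.6, 60.3 and 41.2 CPM in the TNBS libraries. These groups overlapped, and the log2 fold change was -0.80 (SE 0.32, edgeR adjusted p = 0.203). Beside it, 4 of 8 absorptive colonocyte markers fell, and their sum was 4561 to 6539 CPM in normal colon and 1969, 3830 and 7522 CPM in TNBS replicates 1 to 3. Much of that sum was Car1, at 658, 2799 and 5881 CPM in TNBS replicates 1 to 3. The other 7, a choice made after the values were seen, summed to 3436 to 4532 CPM in normal colon and to 1311, 1031 and 1641 CPM in TNBS replicates 1 to 3, and each of them had all TNBS values below the normal ones. None of these 8 markers was at 0 in any library, and the part of these cells in the value of Slc39a4 was not tested.

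The remaining Slc39 genes included values from one TNBS library that stood apart from the others. Slc39a10, a plasma membrane zinc importer, was at 33.3, 33.2 and 36.5 CPM across normal libraries and at 35.8, 13.1 and 15.9 CPM in the TNBS libraries. TNBS replicate 1 lay within the normal range, and the other two lay below it (log2 fold change -0.67, SE 0.36, edgeR adjusted p = 0.316). Without TNBS replicate 1 the value was -1.25 and passed the threshold (edgeR adjusted p = 0.0207). That fit kept TNBS replicates 2 and 3, the libraries whose Hox transcripts lay apart. It called 532 of 14499 tested genes higher and 576 lower, against 128 and 161 of 14126 in the main fit. Slc39a2 was the tested member with the lowest log2 fold change, -2.18 (SE 1.09, edgeR adjusted p = 0.288). This zinc importer gene was at 1.003, 2.58 and 1.31 CPM in the normal and 0.682, 0 and 0.359 CPM in the TNBS libraries, with at most 57 counts in a library. Slc39a1, Slc39a3, Slc39a5, Slc39a6, Slc39a7, Slc39a8 and Slc39a13 had log2 fold changes from -0.70 to 0.43 with overlapping groups. Slc39a7 shares 74.5% of its 50-base stretches with Gm20427, a gene on the same strand, and Slc39a1 shares 21.8% with other genes, mainly its processed pseudogene, so the counts of both are uncertain. Slc39a11 was too rare to test, with 4 counts over the normal and 2 over the TNBS samples. Slc39a12 had 14 counts in TNBS replicate 1 and 0 in each of the other 5 libraries.

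None of the 6 tested zinc exporter genes of the Slc30 family passed, and their log2 fold changes ran from -0.41 for Slc30a5 to 0.02 for Slc30a1, with a median of -0.28. Slc30a1 (ENSMUSG00000037434, chromosome 1 from 191906767 to 191913247) was at 54.8, 67.5 and 96.5 CPM in the normal and 38.99, 89.9 and 92.5 CPM in the TNBS libraries. Its groups overlapped, and the 95% bounds were folds of 0.595 and 1.72 (edgeR adjusted p = 0.982), so the 14.8-fold rise of Mt1 lies outside it. TNBS replicate 1 held the lowest Slc30a1 value of the 6 libraries, as it held the lowest Mt1 value of the 3 TNBS libraries. Slc30a5 and Slc30a7 encode exporters that load zinc into the early secretory pathway, and Slc30a6 encodes the partner of the Slc30a5 protein. All 3 had overlapping groups. Slc30a4 was at 184, 209 and 203 CPM in the normal and 177, 159 and 178 CPM in the TNBS libraries. Slc30a9 was at 101, 109 and 134 CPM in the normal and 96.3, 91.1 and 82.9 CPM in the TNBS libraries. For both the TNBS values lay below the normal ones by little (log2 fold changes -0.21 and -0.35, edgeR adjusted p = 0.477 and 0.290).

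Slc30a2 encodes ZnT2, an exporter that loads zinc into secretory vesicles in mammary gland, pancreas and Paneth cells. It lies on chromosome 4 from 134343181 to 134354484 and did not pass the filter on low counts, which asks for enough counts in at least 3 libraries. Its counts were 1, 2 and 0 in normal replicates 1 to 3 and 3, 247 and 127 in TNBS replicates 1 to 3. In CPM it was at 0.136, 15.97 and 6.52 in the TNBS libraries, so the signal was in replicates 2 and 3, the libraries whose Hox transcripts lay apart. The ratio of the scaled count sums was 143 with a 95% counting interval of 48.5 to 696, which covers counting error only. With no filter on low counts edgeR gave an adjusted p of 0.0320, and DESeq2 gave an adjusted p of 0.00219. Without TNBS replicate 1 the gene passed the filter and the test (log2 fold change 7.75, edgeR adjusted p = 0.00237), in the fit that called 532 of 14499 genes higher. Without normal replicate 1, 2 or 3 the gene passed the filter but not the test (edgeR adjusted p = 0.153, 0.205 and 0.187). Of 6 Paneth cell markers 3 were in the table. Their sum was 37.0 to 69.7 CPM in normal colon and 13.6, 7.11 and 10.2 CPM in TNBS replicates 1 to 3, and Lyz1 was at 0 in TNBS replicate 2, the library with the most Slc30a2 reads. Itln1 fell and holds most of this sum. Without it, a choice made after its values were seen, the remaining pair summed to 2.22 to 6.24 CPM in normal colon and to 13.1, 6.92 and 9.24 CPM in TNBS replicates 1 to 3. Of that pair Mmp7 had all TNBS values above the normal ones (log2 fold change 2.87, edgeR adjusted p = 0.124) and Lyz1 overlapped, and neither passed. The defensin genes of the list, Defa17, Defa22 and Defa24, had no row. Whether Paneth cells were present was not tested, nor was their part in the Slc30a2 value.

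Copper and magnesium transporters each had one member with lower values in every TNBS library. Slc31a1 encodes Ctr1, the copper importer of the plasma membrane (ENSMUSG00000066150, chromosome 4 from 62360727 to 62391769). It stood at 200, 221 and 206 CPM in the normal and 173, 96.3 and 116 CPM in the TNBS libraries, a log2 fold change of -0.70 (SE 0.23, edgeR adjusted p = 0.143). Without TNBS replicate 1, the TNBS library nearest to the normal ones, the value was -0.98 and passed (edgeR adjusted p = 0.0232). Slc31a2, its neighbour on the same chromosome and a regulator of copper uptake, was at 23.5, 16.5 and 13.8 CPM in the normal and 19.4, 15.3 and 19.1 CPM in the TNBS libraries, with overlapping groups (edgeR adjusted p = 0.999). Slc41a2, a magnesium transporter (ENSMUSG00000034591, chromosome 10 from 83230848 to 83337882), was at 56.3, 63.3 and 66.9 CPM in the normal and 52.9, 13.7 and 25.5 CPM in the TNBS libraries. TNBS replicate 1 lay just below the lowest normal value and the other two far below it (log2 fold change -1.01, SE 0.41, edgeR adjusted p = 0.208). Without TNBS replicate 1 the value was -1.66 and passed (edgeR adjusted p = 0.0152). The fit without TNBS replicate 1 kept TNBS replicates 2 and 3, the libraries whose Hox transcripts lay apart. It called 532 of 14499 tested genes higher and 576 lower, against 128 and 161 of 14126 in the main fit. Slc41a1, a sodium-coupled magnesium exporter, was at 38.3, 30.1 and 31.7 CPM in the normal and 37.9, 31.7 and 28.2 CPM in the TNBS libraries, and Slc41a3, which has been described in mitochondria, at 2.57, 2.54 and 1.36 CPM and 3.91, 1.49 and 4.11 CPM. Both pairs of groups overlapped (edgeR adjusted p = 0.938 and 0.613).

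**Figure D3:**
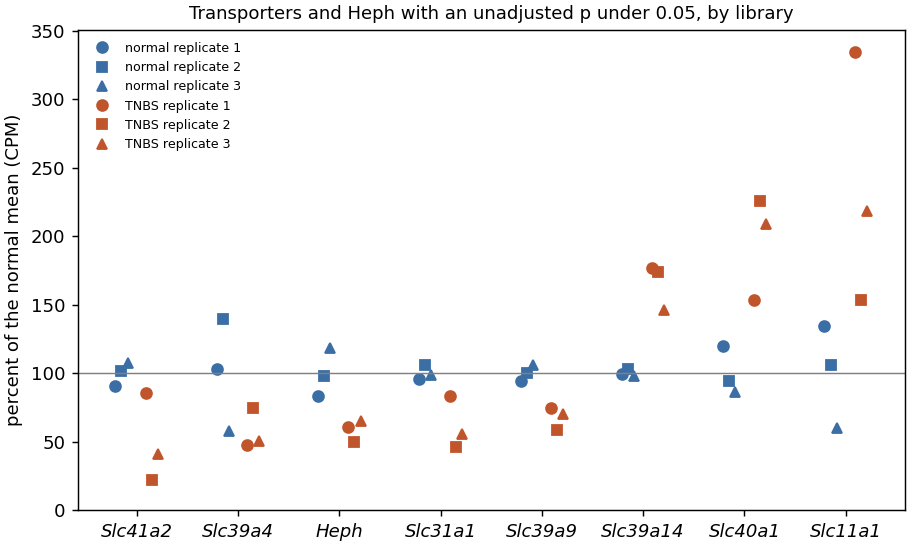
Level of each transporter and of Heph with an unadjusted p under 0.05, as percent of its normal mean, in each of the 6 libraries; the horizontal line marks 100%. The TNBS points lie above the normal ones for Slc39a14, Slc40a1 and Slc11a1 and below them for Slc41a2, Heph, Slc31a1 and Slc39a9; for Slc39a4 the groups overlap, and for Slc41a2 and Slc31a1 TNBS replicate 1, at 85.2% and 82.9%, is the TNBS point nearest to the normal ones.

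Levels of different members were compared per kilobase of exon, the exon length being the union of all annotated transcripts. Per length, Slc39a1 and Slc31a1 were the most abundant members in normal colon, both at a mean of 48.8 CPM per kb, followed by Slc30a4 at 36.2 and Heph at 36.1 CPM per kb. Within each of these 2 pairs the normal libraries overlapped. Mt2 and Mt1 were at 15.5 and 13.3 CPM per kb in normal colon, below Slc39a4 at 26.1 and Slc39a9 at 22.9 CPM per kb. In TNBS colon Mt2 and Mt1 were the most abundant by mean, at 368 and 197 CPM per kb, followed by Slc39a1 at 57.9, Slc30a4 at 31.3 and Slc31a1 at 30.03 CPM per kb. The annotated Mt1 length of 1246 bases, the whole span of the gene, includes longer transcripts than that of Mt2, 588 bases. The per-length order of these 2 genes, and the place of Mt1 among the other members, thus depend on the annotation.

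**Figure D4:**
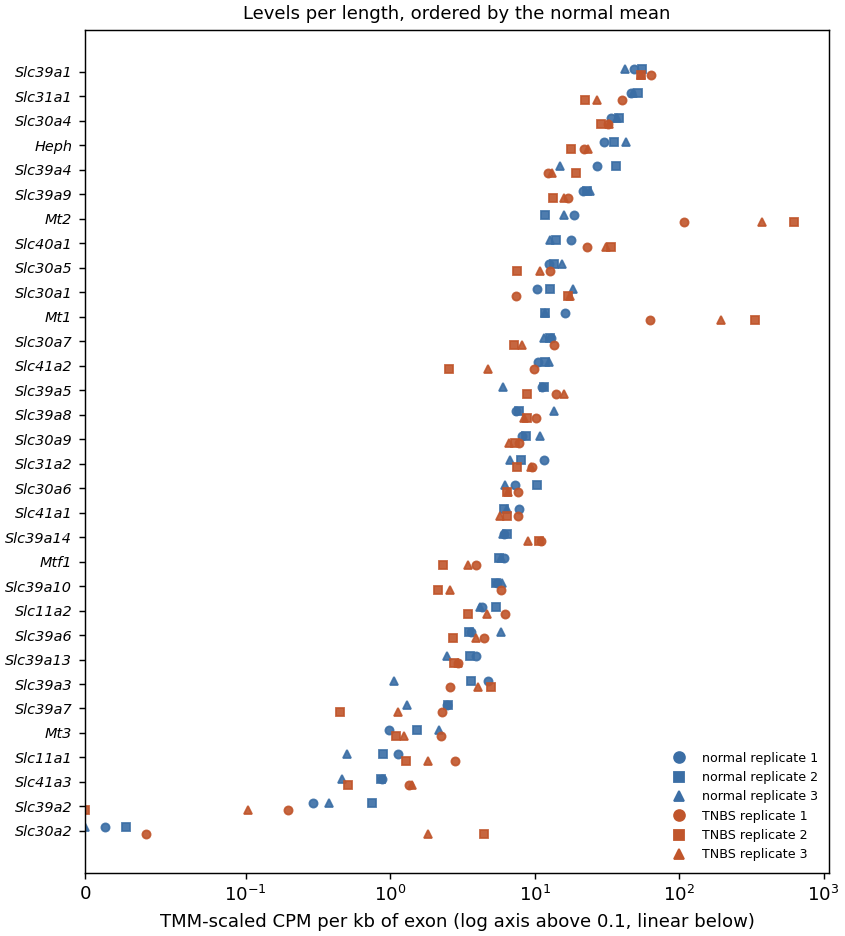
TMM-scaled CPM per kilobase of exon, on an axis that is logarithmic above 0.1 and linear below, for each member other than Slc39a11 and Slc39a12, with a point per library and the members ordered by their normal mean. By the mean, Mt2 is at 15.5 CPM per kb in normal colon, below 6 other members. Mt1, at 13.3 CPM per kb, is below these and also below Slc40a1, Slc30a5 and Slc30a1. In TNBS colon Mt1 and Mt2 are at means of 197 and 368 CPM per kb, above all other members plotted. In TNBS replicate 1 Mt1, at 62.9 CPM per kb, lies just below Slc39a1, at 64.2 CPM per kb. The place of Mt1 among the members depends on its annotated length. Slc30a2 is at the bottom with TNBS replicates 2 and 3 to the right.

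Other genes of metal handling were taken from 3 lists, of which 46 genes were tested. Of these, 2 rose and 0 fell, and the median log2 fold change was -0.22 against 0.01 for all genes. At an unadjusted p under 0.05, 10 of the 46 were higher and 4 lower, against 10.8% and 10.2% of all tested genes, and DESeq2 called 7 higher and 2 lower, against 9.03% of all genes in either direction. Both that rose were among the 22 tested genes of iron and haem handling, whose median was 0.37. Lcn2, which binds bacterial siderophores that carry iron, averaged 2.28 ± 0.147 CPM in normal samples and 97.1 ± 84.0 CPM after TNBS (SD, n = 3), with TNBS values of 27.7, 191 and 73.0 CPM (log2 fold change 5.41, SE 0.67, edgeR adjusted p = 0.0123). Its TNBS libraries stood in the same order as for Mt1 and Mt2. Hmox1, which frees iron from haem, averaged 4.26 ± 1.34 CPM in normal samples and 14.2 ± 3.06 CPM after TNBS (SD, n = 3; log2 fold change 1.74, SE 0.35, edgeR adjusted p = 0.0432). In the iron list, the TNBS values lay all above the normal ones for 10 of the 22 tested genes and all below for 1, against 15.3% and 14.8% of all tested genes. The call of Hmox1 was lost when any 1 normal library was left out (log2 fold changes 2.04, 1.62 and 1.61 without replicates 1, 2 and 3; edgeR adjusted p = 0.0653, 0.189 and 0.124). It was also lost without TNBS replicate 2 or 3 (1.55 and 1.83; edgeR adjusted p = 0.133 and 0.109). Lcn2 lost its call without normal replicate 2 or 3 (5.47 and 5.37; edgeR adjusted p = 0.0721 and 0.0819) and with limma-voom (adjusted p = 0.0772).

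None of the 9 other copper genes passed edgeR's test, where an unadjusted p under 0.05 gave 0 higher and 1 lower, with a median log2 fold change of -0.30 and 1 called lower by DESeq2. The one furthest from 0 was Atp7b, a copper-exporting ATPase, which averaged 0.894 ± 0.554 CPM without and 0.357 ± 0.319 CPM with TNBS (SD, n = 3; edgeR adjusted p = 0.545), with overlapping groups. The gene behind the lower count, named after its values were seen, was Atp7a, another copper-exporting ATPase, at 46.9 ± 8.96 CPM without and 22.5 ± 10.5 CPM with TNBS (SD, n = 3; log2 fold change -1.05, edgeR adjusted p = 0.135; DESeq2 adjusted p = 0.0350). None of the 15 other magnesium, zinc and manganese genes passed either, where an unadjusted p under 0.05 gave 1 higher and 3 lower, with a median of -0.37 and 1 called lower by DESeq2. The one furthest from 0 was Cnnm1, of a family of magnesium transport mediators, which averaged 2.24 ± 1.13 CPM without and 7.24 ± 4.24 CPM with TNBS (SD, n = 3; log2 fold change 1.69, edgeR adjusted p = 0.174). The 3 behind the lower count, also named after their values were seen, were Cnnm4, Mrs2 and Magt1, with log2 fold changes of -1.02, -0.93 and -0.60 and no overlap between groups (edgeR adjusted p = 0.139, 0.148 and 0.209). Cnnm4, a basolateral magnesium exporter of the gut epithelium, was the one DESeq2 called, at 378 ± 48.2 CPM without and 187 ± 81.2 CPM with TNBS (SD, n = 3; DESeq2 adjusted p = 0.0239). Of these 15 genes, 13 had a negative and 2 a positive log2 fold change. The summed level of the 16 listed magnesium, zinc and manganese genes in the table was 1366 to 1461 CPM in normal colon and 1197, 700.5 and 993 CPM in TNBS replicates 1 to 3. For this sum, as for Slc41a2 and Slc31a1, TNBS replicate 1 lay nearest to the normal libraries and replicate 2 furthest. Over all tested genes the order was the same, with 26.4%, 36.2% and 28.7% below the normal range in TNBS replicates 1 to 3.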

How the data were processed

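RNA of 6 mouse colon samples was sequenced, 3 normal and 3 TNBS. Groups and replicate numbers come from the sample labels; the labels do not number the animals, so the p-values reflect only how these samples vary, which may be technical. CASAVA 1.8, HISAT2 and mm10 are named in the submitters' processing notes; the counting tool, strandedness and annotation were not given in the sources used here. Whole-number read counts per gene were deposited by the authors, per the file headers, in 16906 protein-coding rows; 6 further columns of normalized values were not used. Coordinates, exon lengths and overlaps come from GENCODE vM21 (GRCm38, which corresponds to mm10) and are 1-based.

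In R 4.3.3, genes were filtered with filterByExpr (minimum count 10, minimum total 15), which left 14126, scaled with TMM and fitted with edgeR 4.0.16 (glmQLFit, glmQLFTest, two-sided, group only). Standard errors are the absolute log2 fold change over the square root of F, and 95% intervals use the fit's t quantiles. CPM are TMM-scaled; 3 counts correspond to 0.128 to 0.198 CPM, and count intervals cover counting error only. The steps were tested on simulated data. DESeq2 1.42.0, limma-voom (limma 3.58.1), other scalings and filters, a replicate block and left-out libraries were tried as alternatives. Members and lists were chosen with earlier results of these data known. Values are given for every member called or with an unadjusted p under 0.05, the metallothioneins, Mtf1, the iron, copper and Slc41 groups and the members furthest from 0; Slc39a10, Slc30a1, Slc30a2, Slc30a4 and Slc30a9 were added after their values were seen.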

Additional observations from a re-analysis of the deposited data

How the results depend on the processing

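All 15 alternatives kept Mt1 and Mt2 higher in TNBS colon, with log2 fold changes of 2.25 to 4.65 and 2.80 to 5.32, and 13 of the 15 kept each past the threshold; the exceptions left out normal replicate 2 or 3, as given above. Among the members that passed the filter in the main fit and were called under any setting, only Slc39a10 changed sign, at 0.06 with TNBS replicate 1 alone. Slc30a2 was fitted under 8 alternatives, with log2 fold changes of 6.68 to 8.25. Over the fits that each left out one library, 0 to 4 members were called higher and 0 to 4 lower, 7 to 532 of all genes higher and 11 to 576 lower, and 0 to 7 other metal genes higher and 0 to 5 lower; each maximum came without TNBS replicate 1, and the cause was not tested. DESeq2 called 5 members higher and 3 lower, 668 of all genes higher and 645 lower, and 7 other metal genes higher and 2 lower. With library totals only, which moved the median log2 fold change of all genes from 0.01 to 0.15, 4 members were higher and 0 lower, as were 196 and 102 of all genes. Slc40a1 and Slc39a14, the members it added, had values of 1.10 and 0.87 that include this shift. With no filter on low counts 4 members and 209 of all genes were higher. Limma-voom called 80 of all genes and 1 other metal gene higher. Keeping TNBS replicate 2 alone, 2 members, Mtf1 and Slc41a2, were lower, 338 of all genes were higher and 480 lower, and 4 other metal genes were lower. Keeping TNBS replicate 1 alone, 30 of all genes were higher and 33 lower, and 1 other metal gene was higher.

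The labels do not say whether the replicate numbers pair the samples. The deviations of same-numbered libraries from their group means correlated at 0.00547, 0.0149 and 0.0354, and 4 of 6 libraries correlated best with their own number. With 3 libraries in a group these values cannot show whether the samples are paired. With the replicate block 2 members were called higher and 0 lower, as without it, and 1 other metal gene higher, Lcn2; Hmox1 missed the threshold (adjusted p = 0.0569). Slc39a14, at a log2 fold change of 0.73 (SE 0.16), itself missed the threshold in the main fit. A difference of that size could thus go undetected in any member with a larger standard error. Among these are Mt3, Slc39a2 and Slc41a3, whose intervals are wide, and also Slc39a3, Slc39a7, Slc39a10, Slc11a1, Slc41a2 and Slc30a1.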
